A study of Mus musculus with 4 samples.

Results

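The focal adhesion and actomyosin genes are 10 genes whose proteins join the integrins of a cell to its actin filaments or pull on those filaments. They are Tln1, Vcl, Ilk, Ptk2, Pxn, Zyx, Actn1, Actn4, Flna and Myh9, found as the rows with these gene names among the 56748 genes of the table, 1 row for each name. The list was chosen on values of the comparison shown here, namely lower read counts in the treated than in the saline samples, so the differences of these 10 genes between the groups are given as a description and without a test.

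Bulk RNA sequencing compared lung metastases of 4T1-FLuc cells, a luciferase-carrying mouse triple-negative breast cancer (TNBC) line, in 2 saline samples and 2 ADC/cmLumiOpto samples. Both groups were female BALB/cJ mice given 2000000 cells by tail vein at 7 weeks of age, and the labels give 3 weeks of treatment. The treated mice received CD276-DM1, an antibody-drug conjugate that delivers the tubulin poison mertansine to cells with CD276 on their surface. They also received cmLumiOpto, a gene therapy in which light made inside the cell opens a channel in the mitochondrial membrane. Its vector is carried by antibody-tagged exosomes and driven by a cfos promoter, its substrate is ViviRen, and all tumor cells derive from 1 line. The labels of the treated samples read "cmLumi-Olap & CD276-DM1 16mg/kg" without explaining Olap, whereas in the methods the conjugate was dosed at 8 mg/kg and ViviRen at 2 mg/kg. The control is PBS in the labels and saline in the methods. The labels describe tumor cells, the methods whole lung tissue that was dissociated. The methods state 4 samples per group for the sequencing, whereas the series holds 4 samples in all, 2 per group, and all were analysed here. No label ties a sample to an animal, so the tests measure the spread between these samples.

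Focal adhesions are the plaques in which integrins, the receptors for extracellular matrix, are tied to the cytoskeleton. Talin binds the integrin tail and actin, and vinculin is recruited to talin when tension stretches it. Integrin-linked kinase, focal adhesion kinase, paxillin and zyxin form the signaling and scaffold layers, whereas α-actinin and filamin crosslink the filaments and non-muscle myosin II contracts them. Lung fibroblasts, endothelial cells, smooth muscle, platelets, leukocytes and carcinoma cells all build such structures.

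Total counts ran from 15263375 to 19675436 per sample, and 3 counts corresponded to 0.152 to 0.197 CPM, a floor for counting error only. CPM are counts scaled to the library size with edgeR's TMM factors. In a bulk sample, fewer cells of a type and less RNA per cell cannot be told apart. Markers of other cells differed between the groups: the summed CPM of 5 fibroblast genes was 2466 to 3669 in saline and 943 to 1082 in treated samples, with 5 of 5 genes lower, and that of 4 alveolar type 2 genes was 271 to 1400.0 in saline and 4383 to 5217 in treated samples, with 4 of 4 higher. The 3 alveolar type 1 genes summed to 66.7 to 175 and 517 to 528 CPM (3 of 3 higher), the 6 leukocyte genes to 1359 to 1905 and 2853 to 4571 CPM (6 of 6 higher), and the 3 erythroid genes to 317 to 988 and 1554 to 1806 CPM (3 of 3 higher). Most of the leukocyte sum was Lyz2, at 1687 and 1128 CPM in saline and 4299 and 2447 CPM in treated samples. Of the 6 leukocyte genes, 4 had each treated sample above each saline sample, and Cd3e and Itgam overlapped between the groups. Col1a1 and Col1a2 made up most of the fibroblast sum, and Sftpc most of the alveolar type 2 sum. The fibroblast gene Lum overlapped between the groups (27.6 and 5.32 CPM in saline, 5.78 and 1.76 CPM in treated samples). So did the erythroid gene Alas2 (28.8 and 10.4 CPM in saline, 26.5 and 33.4 CPM in treated samples). Summed levels overlapped between the groups for the 5 endothelial genes (334 to 423 and 396 to 576 CPM, 4 higher) and the 5 platelet genes (14.4 to 28.8 and 23.7 to 31.99 CPM, 4 higher). Sums were lower in the treated samples for the 5 epithelial and 4T1 genes (2543 to 2910.1 and 2378 to 2471 CPM, 3 lower) and the 6 smooth muscle and pericyte genes (146 to 150.0 and 105 to 139.6 CPM, 3 lower). No marker was at 0 in a whole group, and Gp9 had 0 counts in saline replicate 2. The part of these cell types in the results below was not tested.

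All 10 genes had a log2 fold change below 0 (ADC/cmLumiOpto against saline), as did 48% of the 15320 genes tested. In 8 of the 10, each treated sample was under each saline sample, a pattern found in 28.8% of all tested genes; since the list was chosen for this direction, nothing is read from the difference. The median log2 fold change was -0.60 for the 10 genes and 0.028 for all tested genes. Together the 10 genes took 4818 and 5259 CPM in saline replicates 1 and 2, and 2956 and 3827 CPM in ADC/cmLumiOpto replicates 1 and 2. In the treated group, replicate 1 lay below replicate 2 for each of the 10 genes, against 52% of all tested genes.

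**Figure D1:**
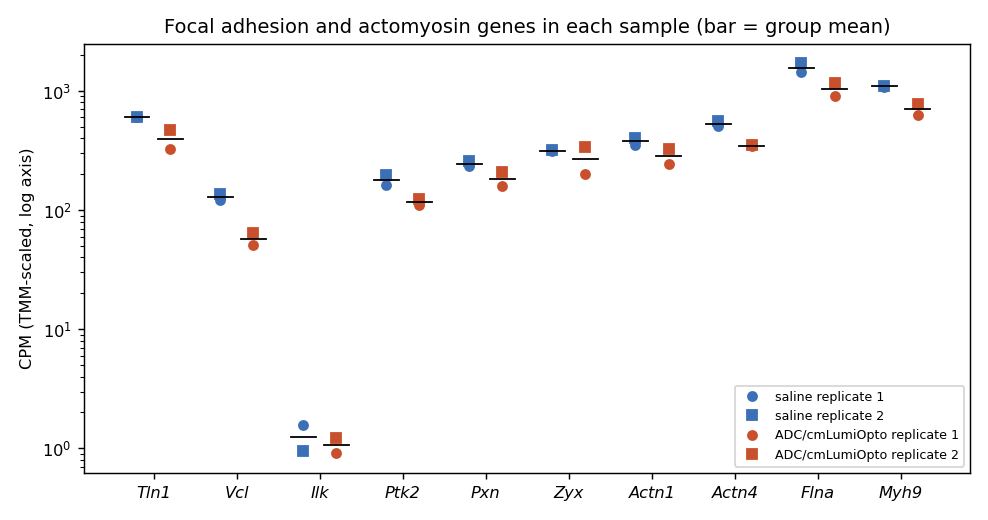
CPM of each gene on a log axis in the 2 saline samples (blue) and the 2 ADC/cmLumiOpto samples (red), circles for replicate 1, squares for replicate 2 and bars for group means. The treated points lie below the saline points except for Zyx and Ilk, and Ilk stands at about 1 CPM, far under the other genes.

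Tln1 (ENSMUSG00000028465, mm39 chr4:43531519-43562691, minus strand) encodes talin-1, the link from integrin tails to actin. It stood at 603 and 599 CPM in saline and at 323 and 469 CPM under treatment. The saline samples were nearly equal and the treated samples were both lower, yet far apart from each other. The treated mean was 65.8% of the saline mean, and the log2 fold change was -0.60 (standard error 0.21, n = 2 per group). It was -0.36 without ADC/cmLumiOpto replicate 1 and -0.90 without replicate 2 of that group.

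Vcl (ENSMUSG00000021823, mm39 chr14:20979466-21083744, plus strand) encodes vinculin, which reinforces talin under tension. Its reads numbered 1932 and 2017 in saline against 907 and 1306 under treatment, or 121 and 136 against 51.4 and 63.7 CPM, without overlap. This was the lowest fold change of the 10 genes, at -1.16 (standard error 0.18), with treated samples at 44.8% of saline. Per kilobase of listed gene length, Vcl stood at 0.240 and 0.271 times the level of Tln1 in saline and at 0.190 and 0.163 times under treatment, so the ratio was lower in both treated samples. The 3′ end of Vcl lies under Ap3m1 on the opposite strand, and 39.2% of the 50-base windows in its longest coding transcript (GENCODE M21) also occur in Ap3m1 transcripts. Whether the counting used strand is not given in the sources used here, so the share of Vcl reads lost or gained there is unknown. Ap3m1 itself had a log2 fold change of -0.094.

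Ilk (ENSMUSG00000030890, mm39 chr7:105385799-105392132, plus strand) encodes integrin-linked kinase, a scaffold at the integrin tail. Its reads numbered 25 and 14 in saline and 16 and 25 under treatment, and the groups overlapped. Its log2 fold change of -0.24 had a standard error of 0.56. At 0.457 CPM per kilobase in saline it ranked at the 12.3 percentile of tested genes, while the other 9 genes ranked at the 76.3 percentile or higher. Taf10 and Rrp8, on the opposite strand, cover 68.3% of its span, and 73.2% of its 50-base windows occur in other genes. Taf10 itself had 933 and 851 reads in saline against 1486 and 1246 under treatment. With so few reads in a span so covered, the Ilk counts give no firm level for this gene.

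Ptk2 (ENSMUSG00000022607, mm39 chr15:73076951-73295129, minus strand) encodes focal adhesion kinase (FAK), the tyrosine kinase that integrin clustering activates. It stood at 164 and 197 CPM in saline and 109 and 124 CPM in treated samples, with no overlap. Its log2 fold change was -0.63 (standard error 0.18), and none of its 50-base windows was shared with another gene.

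Pxn (ENSMUSG00000029528, mm39 chr5:115644735-115694046, plus strand) encodes paxillin, the adaptor that docks FAK and vinculin. Its levels of 235 and 256 CPM in saline and 159 and 208 CPM in treated samples were separate but closer than those of Ptk2. The log2 fold change was -0.42 (standard error 0.19), and it was -0.24 without ADC/cmLumiOpto replicate 1 and -0.63 without replicate 2 of that group.

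Zyx (ENSMUSG00000029860, mm39 chr6:42326564-42337147, plus strand) encodes zyxin, a LIM protein that moves onto strained actin fibers. Saline samples stood at 313 and 317 CPM, and treated samples at 202 and 335.5 CPM, on either side of them. The log2 fold change was -0.23 (standard error 0.25), and it was 0.092 without ADC/cmLumiOpto replicate 1. Epha1 lies over 16.3% of the Zyx span on the opposite strand, and 3.50% of the Zyx windows occur in it.

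Actn1 (ENSMUSG00000015143, mm39 chr12:80214321-80307145, minus strand) and Actn4 (ENSMUSG00000054808, mm39 chr7:28592673-28661765, minus strand) encode the non-muscle α-actinins, which bundle actin. Actn1 stood at 353 and 400.4 CPM in saline and 242 and 325 CPM under treatment, with -0.41 for the log2 fold change (standard error 0.20). Without ADC/cmLumiOpto replicate 1 it was at -0.21, and without replicate 2 of that group at -0.64. Actn4 stood at 508 and 557 CPM in saline and 345 and 352 CPM under treatment, with -0.61 for the log2 fold change (standard error 0.16). Neither gene's groups overlapped, and the treated Actn4 values were the tightest pair among the 10 genes. Per kilobase, Actn4 was at 1.30 and 1.26 times Actn1 in saline and at 1.29 and 0.977 times in treated samples, so the balance of the pair overlapped between the groups.

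Flna (ENSMUSG00000031328, mm39 chrX:73267067-73293426, minus strand) encodes filamin A, which crosslinks actin into networks and binds integrin tails. It had the highest level of the 10, at 1429 and 1700.1 CPM in saline and 899.8 and 1166 CPM in treated samples. The groups did not overlap, and the log2 fold change was -0.60 (standard error 0.20). Myh9 (ENSMUSG00000022443, mm39 chr15:77644787-77726375, minus strand) encodes the heavy chain of non-muscle myosin IIA, the main contractile motor of non-muscle cells. Its saline samples were nearly equal at 1089 and 1096 CPM, and its treated samples were at 624 and 783 CPM. The log2 fold change was -0.63 (standard error 0.18).

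**Figure D2:**
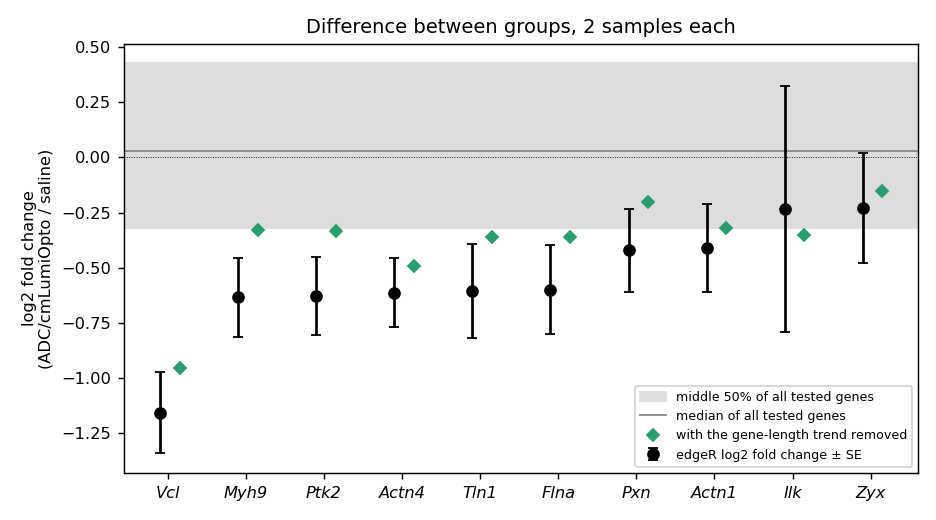
Log2 fold change of each gene (black, ± standard error, 2 samples per group) with the value after the trend on gene length was removed (green). Grey marks the interquartile range of all tested genes, from -0.32 to 0.43, and Vcl lies lowest at -1.16 and -0.96.

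Per kilobase of listed gene length, the saline order was Flna (165 ± 20.3 CPM per kilobase, SD, n = 2), Actn4 (86.9 ± 5.57), Myh9 (84.5 ± 0.368), Actn1 (68.1 ± 6.04), Tln1 (61.4 ± 0.297), Zyx (58.4 ± 0.421), Pxn (28.0 ± 1.68), Vcl (15.7 ± 1.31), Ptk2 (15.3 ± 1.98) and Ilk (0.457 ± 0.160). Actn4 and Myh9 differed by less than their spread, as did Vcl and Ptk2. In the treated samples Flna was again highest, at 109 ± 19.9 CPM per kilobase. Vcl, at 7.03 ± 1.06, stood below Ptk2, at 9.88 ± 0.862, and Tln1, at 40.4 ± 10.5, had a lower mean than Zyx, at 49.9 ± 17.5, with overlapping values. The listed length exceeds the longest coding transcript for each of the 10 genes. It is 11803 against 4675 bases for Ptk2, 8191 against 5267 for Vcl and 12928 against 7433 for Myh9. Both orders and the near ties are those of listed length, and an order by transcript length was not computed.

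Gene length moved with these differences. The 10 genes had a median listed length of 8484 bases, against 4113 bases over all tested genes. Over all tested genes, which are not independent replicates, the Spearman rank correlation of the log2 fold change with length was -0.34, and the 1 in 20 longest genes (median 14911 bases) had a median log2 fold change of -0.35, against 0.40 for the shortest (median 537 bases). Over the 10 genes, which share their libraries, it was -0.70. With a smooth trend on length removed from each sample, the median of the 10 genes was -0.34 in place of -0.60, that of Vcl was -0.96, Actn4 -0.49, Tln1 -0.36, Flna -0.36, Ilk -0.35, Ptk2 -0.33, Myh9 -0.33, Actn1 -0.32, Pxn -0.20 and Zyx -0.15. All 10 stayed below 0 and Vcl stayed lowest. Length also moved with the difference inside the treated group: the rank correlation of replicate 2 minus replicate 1 with length was 0.24 over all tested genes. For the 10 genes this difference ran from 0.030 (Actn4) to 0.73 (Zyx) on the log2 scale. Without ADC/cmLumiOpto replicate 1, the median of the 10 genes was -0.39. The share of RNA quality or library preparation in this trend was not tested.

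**Figure D3:**
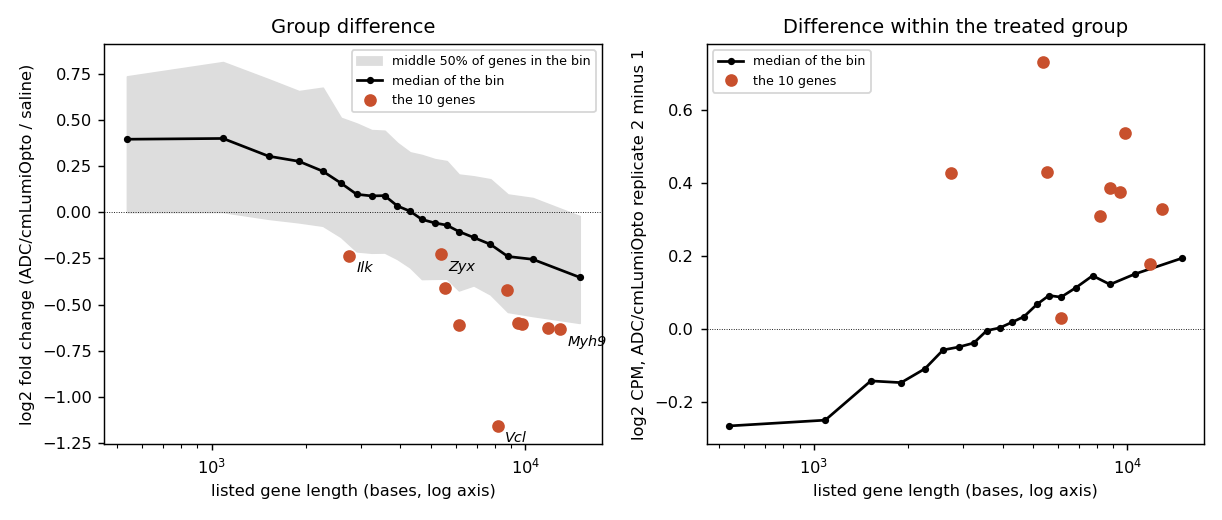
Left, log2 fold change between the groups against listed gene length, as medians (black) and interquartile ranges (grey) of 20 bins of all tested genes, with the 10 genes in red. Right, bin medians and the 10 genes for log2 CPM of ADC/cmLumiOpto replicate 2 minus replicate 1. The bin medians slope down on the left and up on the right, where the 10 genes run from 0.030 (Actn4) to 0.73 (Zyx).

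The regions before the start sites are shown because they hold features that the choice of genes did not use. RefSeq windows (GRCm38.p6, 250 bases before to 50 bases after a transcript start) were matched for 8 of the 10 genes, all but Ptk2 and Pxn. The motifs searched on both strands were the CArG box (bound by SRF, the factor that MRTF proteins carry actin signals to), GGAATG (TEAD), TGAGTCA (AP-1) and GGGCGG (GC box). A CArG box was found in the Vcl window alone among the 8 genes, at position -227 from the start, and in 1.81% of all 27025 genes with a window. GGAATG was found for Vcl, Actn4 and Flna, and in 16.6% of all genes with a window; TGAGTCA for Zyx, and in 5.95%. GGGCGG was found for 7 of the 8 genes, all but Tln1, and in 38.2% of all genes with a window. The shares of all genes include genes not expressed here and are not matched for GC content. The windows of the 8 genes were 57% to 72% GC, so nothing is read from the differences between these shares. Ilk has 2 windows, and the GC box is in the second. Capitals mark the CArG box in Vcl, the gene with the lowest fold change, TGAGTCA in Zyx, whose groups overlapped, and the GGAATG match, read on the opposite strand as CATTCC, in Actn4 and Flna. These are matches of letters and no measure of binding.
Vcl, chr14:20929148-20929447, plus strand: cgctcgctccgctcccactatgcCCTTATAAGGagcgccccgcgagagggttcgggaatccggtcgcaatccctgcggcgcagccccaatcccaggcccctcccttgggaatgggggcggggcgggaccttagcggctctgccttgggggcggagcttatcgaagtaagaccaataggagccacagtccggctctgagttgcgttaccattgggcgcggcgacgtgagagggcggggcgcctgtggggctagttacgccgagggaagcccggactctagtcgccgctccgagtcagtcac
Zyx, chr6:42349578-42349877, plus strand: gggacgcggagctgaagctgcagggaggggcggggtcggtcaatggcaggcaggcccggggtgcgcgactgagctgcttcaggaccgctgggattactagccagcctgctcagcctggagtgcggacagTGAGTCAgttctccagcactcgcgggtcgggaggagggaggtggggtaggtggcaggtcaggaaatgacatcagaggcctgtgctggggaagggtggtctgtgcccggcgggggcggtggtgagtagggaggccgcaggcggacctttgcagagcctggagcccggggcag
Actn4, chr7:28962283-28962582, minus strand: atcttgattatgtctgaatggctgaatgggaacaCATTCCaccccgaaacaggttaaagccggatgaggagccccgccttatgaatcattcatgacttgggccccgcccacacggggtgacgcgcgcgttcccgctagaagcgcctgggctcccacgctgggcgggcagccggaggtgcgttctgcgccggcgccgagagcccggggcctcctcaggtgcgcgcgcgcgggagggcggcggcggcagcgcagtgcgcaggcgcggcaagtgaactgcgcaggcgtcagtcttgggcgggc
Flna, chrX:74246485-74246784, minus strand: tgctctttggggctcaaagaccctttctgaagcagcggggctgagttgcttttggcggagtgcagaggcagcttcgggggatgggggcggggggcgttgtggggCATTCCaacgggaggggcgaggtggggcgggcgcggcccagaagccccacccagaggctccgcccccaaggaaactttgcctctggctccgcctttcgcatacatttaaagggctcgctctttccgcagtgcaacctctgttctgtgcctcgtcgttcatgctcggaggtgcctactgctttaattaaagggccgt

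The relatives of these genes were examined next, followed by other parts of the adhesion and contraction machinery, as lists of 104 genes in all, of which 102 were tested. Under the quasi-likelihood test of edgeR, with p adjusted by Benjamini-Hochberg across all tested genes, 0 of the 102 had an adjusted p under 0.05, as did 0% of all tested genes. At an unadjusted p under 0.05, 34 were lower and 4 higher, against 12.2% and 11% of all tested genes. The edgeR exact test called 15 lower and 2 higher (3.68% and 3.96% of all tested genes), and DESeq2 called 23 lower and 3 higher (5.47% and 4.16% of the 13834 genes to which it gave an adjusted p). The median log2 fold change of the 102 genes was -0.23, with 70 genes below 0 (48% of all tested genes). In 54, or 52.9%, each treated sample was under each saline sample, against 28.8% of all tested genes, and in 15 each treated sample was above each saline sample, as in 28.1% of all tested genes. The shares of all tested genes are not matched for gene length, with which the fold change moved. The lists were also chosen with earlier results of these data known, so nothing is read from the differences between these shares.

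Relatives of the same family differed in direction. Of 11 tested relatives, 7 had a log2 fold change below 0 and 4 above, with a median of -0.37. That median was -0.13 with the length trend removed, and between -0.52 (without saline replicate 1) and -0.22 (without saline replicate 2) with 1 sample left out. Without the expression filter it was -0.059, but Actn2 and Actn3, at 0 to 9 reads per sample, then enter the list. The myosin heavy chains spread most. Myh10, the heavy chain of myosin IIB, stood at 281 and 284 CPM in saline and 126 and 124.9 CPM in treated samples (log2 fold change -1.17, adjusted p = 0.116 in edgeR). Myh14, that of myosin IIC, which epithelia carry, stood at 55.9 and 33.8 CPM in saline and 91.8 and 115 CPM in treated samples (log2 fold change 1.20, adjusted p = 0.116 in edgeR). Within each sample and per kilobase, Myh9 was at 3.13 and 3.12 times Myh10 in saline and 4.00 and 5.07 times in treated samples, whereas it was at 10.96 and 18.3 times Myh14 in saline and 3.83 and 3.85 times in treated samples. Neither ratio overlapped between the groups, and they differed in opposite directions. Myh11, the smooth muscle heavy chain, was at 8.69 to 11.1 CPM in all samples (log2 fold change 0.21).

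Among the other relatives, filamin C (Flnc) stood at 137 and 201 CPM in saline and 63.6 and 65.1 CPM in treated samples (log2 fold change -1.39, adjusted p = 0.116 in edgeR). Lpp, a zyxin relative, stood at 102 and 139 CPM in saline and 52.2 and 58.0 CPM in treated samples (log2 fold change -1.13, adjusted p = 0.116 in edgeR). Trip6, another, had a log2 fold change of -0.37. The Zyx level per kilobase was 12.6 and 9.29 times that of Lpp in saline and 15.85 and 23.7 times in treated samples. The talin relative Tln2 was at -0.49. Of the relatives that leukocytes carry, leupaxin (Lpxn) was at 0.79 (adjusted p = 0.234 in edgeR), and the FAK relative Ptk2b was at -0.053 with overlapping groups (adjusted p = 0.873 in edgeR). Pxn was at 6.05 and 7.99 times Lpxn per kilobase in saline and 2.05 and 4.60 times in treated samples. Tgfb1i1, the paxillin relative Hic-5, was at 0.10 with overlapping groups. Actn2 and Actn3, the muscle α-actinins, did not pass the expression filter.

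**Figure D4:**
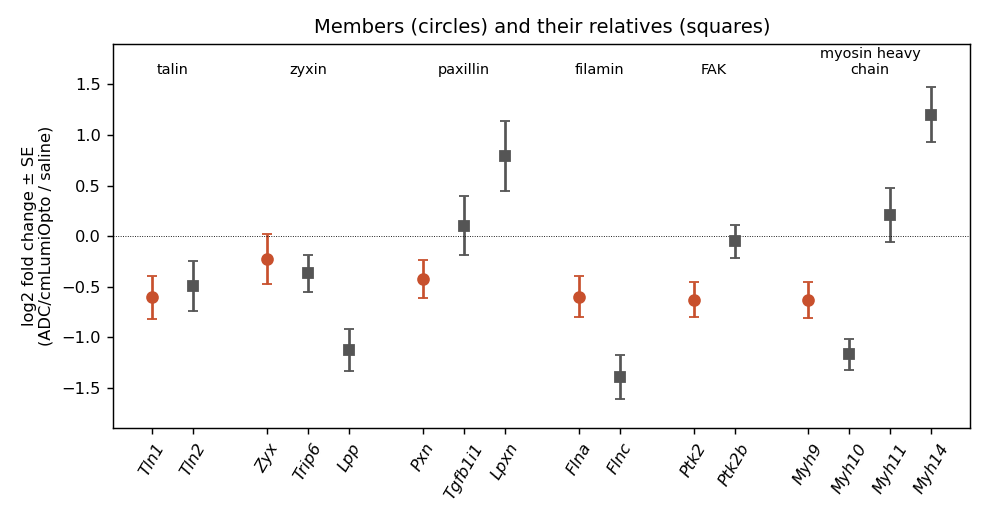
Log2 fold change ± standard error in the talin, zyxin, paxillin, filamin, FAK and myosin heavy chain families, with red circles for genes of the 10, grey squares for their relatives and 2 samples per group. Myosin heavy chains run from -1.17 (Myh10) to 1.20 (Myh14), and the lowest point is Flnc at -1.39.

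Of 31 adhesion adaptors, 23 had a log2 fold change below 0 and 8 above, with a median of -0.20 that was -0.090 with the length trend removed and -0.30 without ADC/cmLumiOpto replicate 2. At an unadjusted p under 0.05, 8 were lower and 1 higher, against 12.2% and 11% of all tested genes. The exact test called 3 lower and 1 higher (3.68% and 3.96% of all tested genes). DESeq2 called 6 lower and 1 higher (5.47% and 4.16% of the genes to which it gave an adjusted p). Fblim1 (migfilin, which binds filamin) was lowest, at 80.3 and 96.2 CPM in saline and 42.1 and 44.6 CPM in treated samples (log2 fold change -1.02, adjusted p = 0.116 in edgeR). Lims2 (PINCH-2, a partner of integrin-linked kinase) was highest, at 4.31 and 3.71 CPM in saline and 8.39 and 14.0 CPM in treated samples (log2 fold change 1.48, adjusted p = 0.123 in edgeR). The 2 with the highest level per length, Csrp1 and Vasp, an actin elongation factor that zyxin recruits, had log2 fold changes of 0.0052 and 0.17 with overlapping groups.

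Among 9 adhesion kinases and phosphatases, 5 were below 0 and 4 above, with a median of -0.12 that was -0.078 by library size and -0.038 with upper-quartile scaling. The exact test called 1 lower and 0 higher (3.68% and 3.96% of all tested genes). DESeq2 also called 1 lower and 0 higher (5.47% and 4.16% of the genes to which it gave an adjusted p). At an unadjusted p under 0.05, 3 were lower and 0 higher, against 12.2% and 11% of all tested genes. Src, the kinase that pairs with FAK, was lowest, at 126 and 144 CPM in saline and 71.5 and 89.6 CPM in treated samples (log2 fold change -0.75, adjusted p = 0.123 in edgeR). Its relative Yes1 was highest, at 0.32 (adjusted p = 0.321 in edgeR). Pak2 had a log2 fold change of -0.41, and Csk, which inhibits Src, one of 0.10 with overlapping groups.

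The myosin II chains and regulators were even in direction, with 7 of 14 below 0 and a median of -0.014, whose sign changed with the scaling. At an unadjusted p under 0.05, 3 were lower and 1 higher, against 12.2% and 11% of all tested genes. The exact test called 1 lower and 0 higher (3.68% and 3.96% of all tested genes). DESeq2 called 1 lower and 1 higher (5.47% and 4.16% of the genes to which it gave an adjusted p). Myl6, the essential light chain that pairs with Myh9, stood at 364 and 368 CPM in saline and 700.4 and 502 CPM in treated samples, the opposite direction to Myh9 (log2 fold change 0.72, adjusted p = 0.132 in edgeR). The regulatory light chain Myl12a was at 0.11 with overlapping groups. Cdc42bpb, a kinase that promotes myosin activity, was lowest, at -0.77 (adjusted p = 0.116 in edgeR).

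Of 26 actin filament proteins, 21 were below 0 and 5 above, with a median of -0.47 that was -0.23 without saline replicate 2. At an unadjusted p under 0.05, 10 were lower and 1 higher, against 12.2% and 11% of all tested genes. The exact test called 5 lower and 0 higher (3.68% and 3.96% of all tested genes). DESeq2 called 9 lower and 0 higher (5.47% and 4.16% of the genes to which it gave an adjusted p). Palladin (Palld), a scaffold of stress fibers, stood at 220.1 and 209 CPM in saline and 103 and 94.0 CPM in treated samples (log2 fold change -1.12, adjusted p = 0.116 in edgeR). The non-muscle actin genes Actb and Actg1 had the highest levels of this list. Actb was at 3146 to 3798 CPM with overlapping groups (log2 fold change -0.060), and Actg1 stood at 2310.1 and 2122 CPM in saline and 1517 and 1602 CPM in treated samples (log2 fold change -0.51, adjusted p = 0.154 in edgeR). Actb and Actg1 are close in sequence, and how shared reads were counted is not given in the sources used here. Lcp1, the plastin of leukocytes, was highest, at 0.82 (adjusted p = 0.174 in edgeR).

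**Figure D5:**
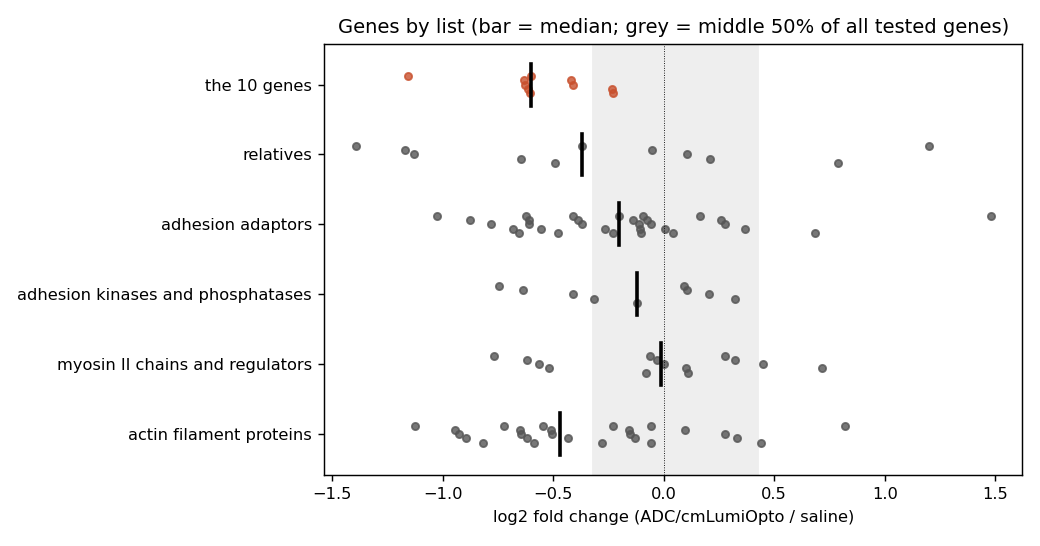
Log2 fold change of every tested gene (points) in the 10 genes (red) and in 5 lists of related genes (dark grey), with a bar at each median and light grey for the interquartile range of all tested genes. Medians run from -0.60 for the 10 genes to -0.014 for the myosin II chains and regulators.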

How the data were processed

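Messenger RNA of 2 saline and 2 ADC/cmLumiOpto samples was sequenced on an Illumina HiSeq platform. The authors deposited counts, whole numbers of reads per gene without normalization. Alignment was by HISAT2; the methods name GRCm38, whereas the submitters' processing notes name mm39. Positions listed with the counts are given as mm39. The counting program and its use of strand are not given in the sources used here.

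The model across the table used edgeR 4.0.16 under R 4.3.3: filterByExpr (minimum count 10, minimum total 15; 15320 genes tested, 31185 with no count), TMM, glmQLFit and glmQLFTest, Benjamini-Hochberg adjustment, adjusted p under 0.05. A standard error is the log2 fold change divided by the square root of F. The smallest two-sided p of an exact permutation test is 0.333 at this sample size. Alternatives were DESeq2 1.42.0, other scalings, filters and tests, a replicate block, a length trend removed by lowess (span 0.3), and each sample left out. The edgeR and DESeq2 fits were tested on simulated data.

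The 10 genes and all lists were chosen with earlier results of these data known, and the motifs, the GC correction and the median without Ilk after seeing the data. Named were the 10 genes, the tested relatives, and from each of the other lists the 2 genes with the highest level per length and those with the lowest and highest log2 fold change. Overlapping genes were named after their values were seen. Shared windows were counted in GENCODE M21 transcripts on both strands. Protein sequences were not used here, and some genes named by this rule and a list are not reported here.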

Additional observations from a re-analysis of the deposited data

How the results depend on the processing

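The 10 genes had a log2 fold change below 0 under each of the 9 alternatives that kept all samples. Since the list was chosen for this direction in these same samples, nothing is read from the shared sign. Their median lay between -0.61 and -0.34 under these alternatives and between -0.69 and -0.39 with 1 sample left out. Zyx was at 0.092 without ADC/cmLumiOpto replicate 1 and Ilk at 0.16 without saline replicate 1, with ranges of -0.64 to 0.092 and -0.55 to 0.16 over the samples left out. The count of genes with each treated sample under each saline sample was 8 under each alternative that kept all samples. With 1 sample left out it was 8 to 10. Fewer samples are compared there, which makes overlap less likely, so nothing is read from this count. Across all tested genes, the count with an adjusted p under 0.05 was 0 in the edgeR quasi-likelihood test, 1170 in the exact test, 1332 in DESeq2, 2259 without the expression filter, and 0 to 218 with 1 sample left out (218 without saline replicate 1). In the wider lists it was 0, 17, 26, 30 and 0 to 3 in the same order. The median of the myosin II list was 0.036 by library size, 0.068 by upper quartile, 0.023 with at least 10 counts in every sample, 0.13 with the length trend removed, and -0.081 to 0.040 with 1 sample left out. The samples of a group share only a number with those of the other: the correlation of same-numbered deviations was 0.099, and with a replicate block 607 genes passed across the table and 10 in the wider lists. Upper-quartile scaling put the median of all tested genes at 0.11 and the absence of a filter at 0.10. The cause of these differences was not tested. Of the 10 genes, Ilk rested on the fewest counts, 14 to 25.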
